A study of Mus musculus with 2 samples.

Results

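The regions described here are 3432 gene regions of mouse autosomes whose promoter array probes never reached 55% G+C. A region was all probes that the array annotation gave to 1 gene name. Clusters of olfactory and vomeronasal receptor genes were left out by name, and names with fewer than 10 probes were not used. Of the 18517 gene names on the arrays, 16860 were autosomal and outside those clusters, and 15152 of these had at least 10 probes. The other 11720 genes with at least 10 probes had at least 1 probe at or above the limit and serve as the comparison. Chromatin of feeder-free E14 cells, a line of mouse embryonic stem cells, was cross-linked and immunoprecipitated for Tcf3. Immunoprecipitated DNA (Cy5) and input DNA (Cy3) were amplified and hybridised together, once on each of 2 arrays. The arrays had 0 probes in common and carried 1851 and 1581 of the regions. The name of 1 region stood on both arrays, with different probes, and was counted on array 1. Each probe was therefore measured once, without a replicate and without a control immunoprecipitate, and no difference given here was tested. The labels name several antibodies, and the sample titles are the source for Tcf3. Genotype changes, treatments and times are not given in the sources used here, and binding data cannot show whether the cells carried the markers of stem cells.

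Tcf3, now named Tcf7l1, is the Tcf/Lef family member that is most abundant in mouse embryonic stem cells. It binds DNA through an HMG domain at sequences of the form CTTTGAT or CTTTGAA, recruits co-repressors of the Groucho/Tle family, and is displaced or overcome when β-catenin accumulates under Wnt signalling. It is known in these cells for occupying genes of the pluripotency network together with Oct4 and Sox2 and for dampening their expression. Promoters without CpG islands, the class meant by the term CpG-poor, typically belong to genes with expression in 1 tissue, such as liver, skin, blood or gut genes, and most are silent in embryonic stem cells.

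Member probes were poor in CpG beside those of the other genes, and the label CpG-poor held only in part for the promoters. Member probes (83296 in all, a median of 23 per region) held 0.769 CpG per 100 bases, against 1.51 in probes of the other genes, and 65.9% held no CpG. Their observed over expected CpG ratio was 0.219, against 0.343. A lower CpG content of member probes was in part given in advance, since the rule set a G+C limit on the same sequences. RefSeq promoters (250 bases before to 50 after the start, build GRCm38.p6) could be matched to 2333 members by a single current or older symbol. Their median CpG ratio was 0.374, against 0.766 for the other genes. However, 708 of the matched members (30.3%) had a RefSeq promoter over 50% G+C with a CpG ratio over 0.6, against 69.1% of the matched other genes. By the rule no probe of these members reached 55% G+C, and how much of each promoter the probes covered was not measured. Receptor clusters were not wholly absent either, since the members included 30 taste receptor names, 13 trace amine receptor names and 9 Mas-related receptor names.

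The probes below belong to members with several high probes side by side, to called stem cell genes, and to members whose called probe held a motif. They are printed 5′ to 3′ as the array files give them, with motifs or their reverse complements in capitals. The motifs were CTTTGAT and, as a variant for the same factors, CTTTGAA, then the Sox-type string CTTTGTT and the octamer ATGCAAAT. The build and strand of the arrays' coordinates are not given in the sources used here. Pdpn is shown for its 4 called probes in a row between chr4:142714494-142714545 and chr4:142714895-142714943, Pef1 for 2 probes at chr4:129547029-129547085 and chr4:129547190-129547248, and Tbc1d13 for 2 probes at chr2:30142527-30142582 and chr2:30142699-30142744. The pair Ifitm2-Ifitm1 is shown for the highest probe of its first peak, at chr7:137376907-137376966, and the stem cell genes Dppa3 (chr6:122661511-122661570) and Dppa5 (chr9:78444595-78444654 and chr9:78444703-78444762) for all their called probes. Foxp2 (chr6:15123518-15123577), Thbs2 (chr17:12975786-12975845) and Spic (chr10:88244018-88244077) are shown because a called probe held a motif.
Pdpn probe 1: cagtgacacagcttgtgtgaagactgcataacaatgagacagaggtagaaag
Pdpn probe 2: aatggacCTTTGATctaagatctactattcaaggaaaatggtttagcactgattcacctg
Pdpn probe 3: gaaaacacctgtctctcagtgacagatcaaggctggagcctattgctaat
Pdpn probe 4: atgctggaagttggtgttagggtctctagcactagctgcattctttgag
Pef1 probe 1: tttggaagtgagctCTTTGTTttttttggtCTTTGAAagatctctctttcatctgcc
Pef1 probe 2: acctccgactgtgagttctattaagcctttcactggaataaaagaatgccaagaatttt
Tbc1d13 probe 1: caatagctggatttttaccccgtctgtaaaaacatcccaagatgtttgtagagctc
Tbc1d13 probe 2: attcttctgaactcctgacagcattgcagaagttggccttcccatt
Ifitm2-Ifitm1 probe: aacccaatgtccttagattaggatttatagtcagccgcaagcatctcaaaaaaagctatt
Dppa3 probe: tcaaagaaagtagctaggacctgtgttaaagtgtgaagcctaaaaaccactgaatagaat
Dppa5 probe 1: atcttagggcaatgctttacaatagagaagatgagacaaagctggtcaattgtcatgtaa
Dppa5 probe 2: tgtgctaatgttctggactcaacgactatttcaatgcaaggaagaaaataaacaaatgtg
Foxp2 probe: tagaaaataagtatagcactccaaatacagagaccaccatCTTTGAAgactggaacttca
Thbs2 probe: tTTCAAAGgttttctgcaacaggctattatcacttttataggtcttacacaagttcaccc
Spic probe: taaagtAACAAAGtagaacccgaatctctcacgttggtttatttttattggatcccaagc
Pdpn probe 2 held CTTTGAT, and Pef1 probe 1 held CTTTGTT and CTTTGAA within 1 probe. The probes of Tbc1d13, Ifitm2-Ifitm1, Dppa3 and Dppa5 held none of the 4 motifs in these letters. Probes covered a median of 21.9% of a region's span, so most bases between them were not read.

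The first result is how much of these regions was measured at all. The scanner software writes a surrogate value where a spot is not above background, and 54.7% of member probes had a surrogate for the immunoprecipitate. The share was 45.7% on array 1 and 65.4% on array 2, against 24.3% and 45% in the other genes. The input had a surrogate in 6.86% of member probes, against 2.33%. The median input signal of member probes was 320.4 on array 1 and 232 on array 2, against 535 and 374. Both channels were measured in 54.3% and 34.5% of member probes, against 75.7% and 55%. All values below are log2 of Cy5 over Cy3, centred on the median of the measured spots of each array, unless another setting is named.

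The loss followed base composition within the members. At 25 to 30% G+C, 92.9% of member probes had a surrogate for the immunoprecipitate, at 35 to 40% it was 67.4%, and at 50 to 55% it was 2.55%. In the bin of 35 to 40% G+C, which held 37833 member probes, the other genes had a surrogate in 58.3%. The median input signal in that bin was 229 in members and 295 in the other genes. Thus members were dimmer than other genes also at like G+C.

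The ratio of the measured member probes was lowest in the middle of the G+C range. Its median was 0.78 at 25 to 30% G+C (149 probes measured in both channels), −0.19 at 40 to 45% and 0.21 at 50 to 55%. In the other genes it reached 1.71 at 80 to 85%, a range that members lack by the rule. At 35 to 40% G+C the median was −0.11 in members and −0.30 in other genes. At 30 to 35% G+C it was 0.49 over all 1314 measured member probes and −0.10 over the 407 of them whose input was at or above the array median. At 25 to 30% G+C it was −0.06 over the 36 such probes. A dim-input probe counted as measured only if its immunoprecipitate signal passed the floor (median surrogate 173 and 197 on arrays 1 and 2). Low ratios at dim input were therefore left out by this filter, and the remaining ones are high by selection.

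**Figure D1:**
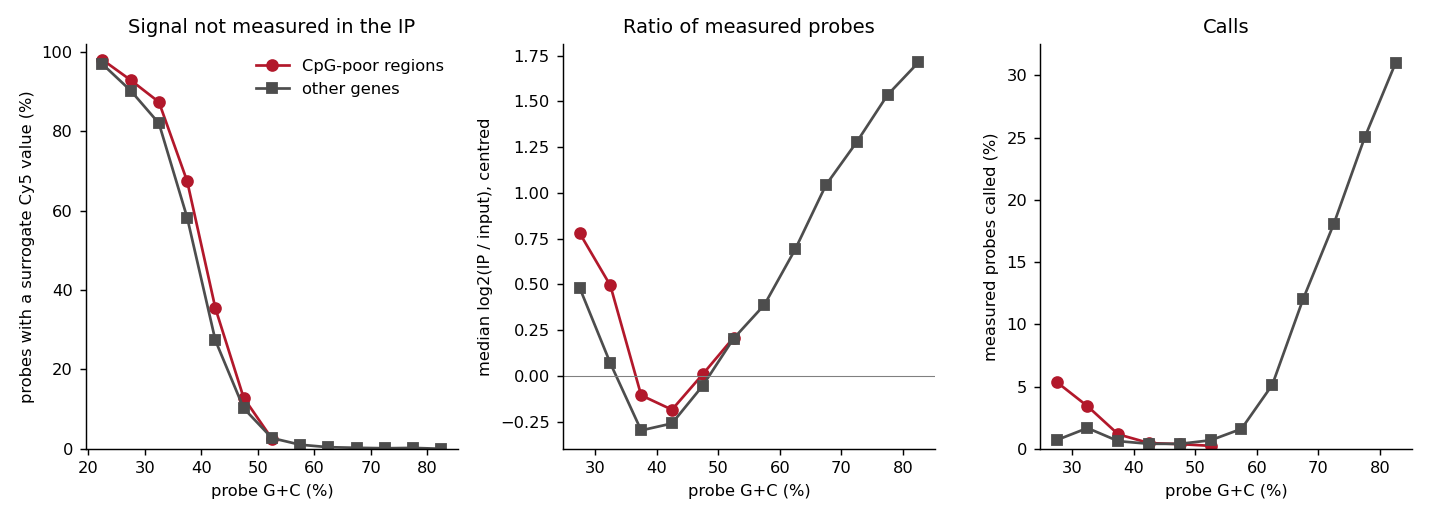
Probes in 5% bins of G+C (x axis) for the CpG-poor regions (red circles) and the other genes (grey squares), with the share of probes with a surrogate Cy5 value, the median centred log2 ratio of measured probes, and the share of measured probes called; the last 2 panels show bins with at least 100 measured probes. The surrogate share falls from over 90% to 2.55% within the members' range, and the share called in the other genes reaches 31.0% at 80 to 85% G+C, where members have no probes.

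A higher signal in the immunoprecipitate than in the input was called in 203 of the 3432 regions (5.91%). A probe was called where the mean of its set, meaning the probe with its nearest measured neighbour on each side within 1000 bp, had an upper-tail probability under 0.001 on the array's own scatter, with a further condition on single probes. With the same rule 13.4% of all named genes of both arrays were called, and 2046 of the 11720 other genes (17.5%). On array 1, 8.37% of members and 20.6% of other genes were called, and on array 2, 3.04% and 14.1%. With this setting the share of members called lay below that of other genes on both arrays.

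The order of members and other genes depended on the setting. The G+C trend was taken as the median of the used spots in each 2% bin of G+C on each array. With this trend subtracted from the measured spots, 507 members (14.8%) and 13.4% of other genes were called, where 12.7% of all named genes were called. Under that setting the order held on array 1 (22.6% of members against 19.1%) and turned on array 2 (5.63% against 7.31%). With all spots, surrogates included, 447 members (13%) and 13.9% of other genes were called, against 13.8% of all named genes. Of the 447, 420 lay on array 1 and 27 on array 2. With only measured spots whose input was at or above the array median, 76 members (2.21%) and 13.8% of other genes were called, against 9.9% of all named genes. On this bright-input setting the shares were 2.27% of members on array 1 and 2.15% on array 2. With normexp background correction of the mean signals, 25.3% of members and 64.1% of other genes were called, against 50.2% of all named genes.

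**Figure D2:**
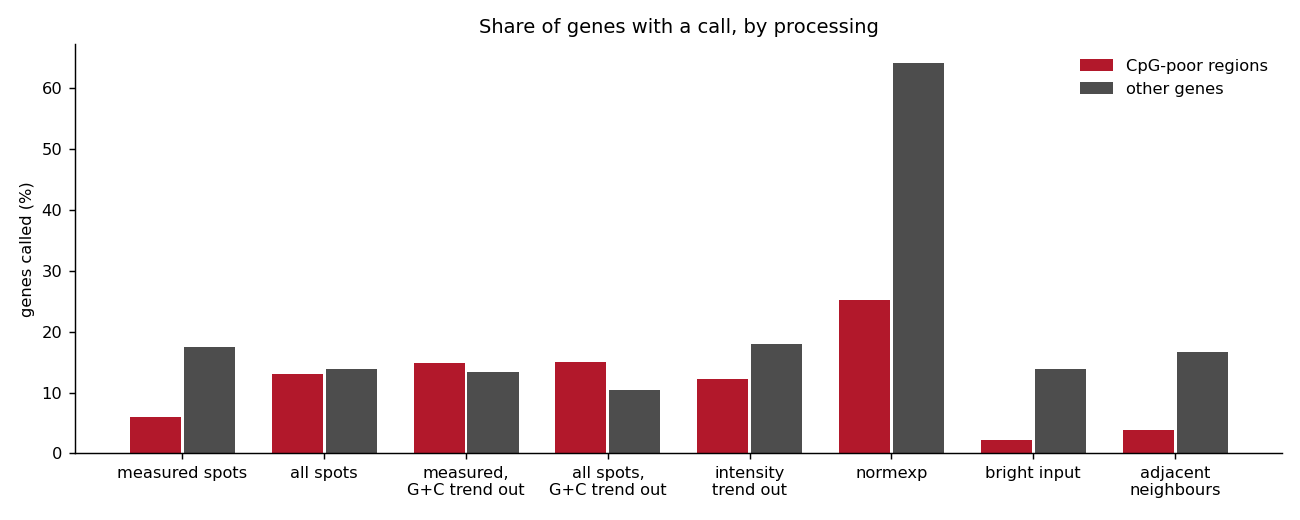
Share of genes with at least 1 called probe (y axis, percent) for the CpG-poor regions (red) and the other genes (grey) under 8 settings (x axis), each bar being 1 count over 3432 or 11720 genes without a replicate. Members range from 2.21% with bright input to 25.3% with normexp, where the other genes reach 64.1%, and they exceed the other genes in both settings with the G+C trend subtracted.

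The calls with all spots rested largely on values that were not measured. Of the 1356 member probes called with all spots, 1021 (75.3%) had a surrogate for the immunoprecipitate. The median input signal of these called probes was 51.6, against 381 for the 292 member probes called with measured spots. The 6 members with the highest sets made only of surrogates were Sprr1b, A730045E13Rik, Tas2r125, mmu-mir-383, Tas2r120 and Tas2r121. Their set means lay between 2.17 and 2.21, and the SD over the 2 probes of each set was at most 0.061. Sprr1b, a cornified envelope protein of skin, had Cy3 values of 44.0 and 44.1 and Cy5 values of 172 and 174, which were surrogates in both channels. Tas2r125, a bitter taste receptor, had 43.9 and 44.9 against 169 and 172. In 11 of the 12 probes of these sets both channels were surrogates, so that the ratio is the quotient of 2 floors and no measurement of Tcf3. With measured spots none of the 6 was called, and the highest set mean of Sprr1b was 1.47.

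Few probes were called in most of the 203 regions. In 129 of them 1 probe was called, in 63 there were 2, and in 11 there were 3 or more, up to 5. The median over these regions of their uncalled probes was 0.18. In 33 called regions, however, the median over the measured probes was above 1. Such a median can rest on few probes, as in AW551984-Olfr148, where 4 of 33 probes were measured and the median of the uncalled ones was 0.27. The share of members called was higher where more probes were measured, from 2.60% of the 461 members with up to 4 measured probes to 9.12% of the 318 with 20 or more. The other genes showed the same order, from 3.6% to 23.4%.

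Few members were called under all of 4 settings, namely measured spots, all spots, the G+C trend subtracted and bright input. A member counted under a setting if any of its probes was called, so the called probes can differ between settings, as in Foxp2. Of the 203 called with measured spots, 130 were also called with all spots (29.1% of the 447), 196 with the G+C trend subtracted (38.7% of the 507) and 55 with bright input (72.4% of the 76). A total of 34 of the 3432 members were called under all 4 settings, 29 on array 1 and 5 on array 2. The same count was not made for the other genes, so no share stands beside it. With bright input alone, 2.21% of members and 13.8% of other genes were called. The set of 34 was chosen after the values were seen, so its values are a description. Its set means ran from 1.39 to 2.76, 20 of the 34 had at least 2 called probes, and 61.5% of its probes were measured in both channels. Of the 34, 31 were also called when the neighbours had to be next to each other among all probes of the array. Only 2 of the 12 highest sets, Pdpn and Cga, belonged to the 34.

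Pdpn encodes podoplanin, a mucin-type membrane glycoprotein of lymphatic endothelium and lung epithelium. All 31 of its probes were measured in both channels, and its 4 called probes, printed above, had log2 ratios of 3.13, 3.28, 1.86 and 1.85. Its highest set mean was 2.76 (SD 0.78 over 3 probes), a ratio of 6.76. The immunoprecipitate signals of that set were 8338, 9234 and 2027 against input signals of 1156, 1159 and 678. The median over the 31 probes was 0.40, and the peak lay 2526 to 2926 bp before the RefSeq start. The region thus held 1 peak over low values, with a lower group of probes on the other side of the start.

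Pef1, a calcium-binding protein with penta-EF-hand domains, had log2 ratios of 1.81, 2.90 and 2.80 in its highest set. The set mean was 2.50 (SD 0.60), with its called probes 5146 and 4984 bp before the start, and the median over 20 measured probes was 0.44. The pair Ifitm2-Ifitm1, interferon-induced membrane proteins that restrict virus entry, had 2 separate peaks of 2 called probes each. The first had log2 ratios of 3.31 and 2.46 and the second, 3048 bp away, 2.13 and 2.41. Between the peaks 1 measured probe was not called and 4 probes were not measured. Tbc1d13, a GTPase-activating protein for Rab proteins, had 2.37, 3.07 and 1.48 in neighbouring probes, and all 12 of its probes were measured. Of all measured probes, 7 of 31 exceeded 1 in Pdpn, 5 of 20 in Pef1, 6 of 23 in Ifitm2-Ifitm1 and 4 of 12 in Tbc1d13. The highest stood next to each other, which the calling rule and the choice of these regions favoured in advance.

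**Figure D3:**
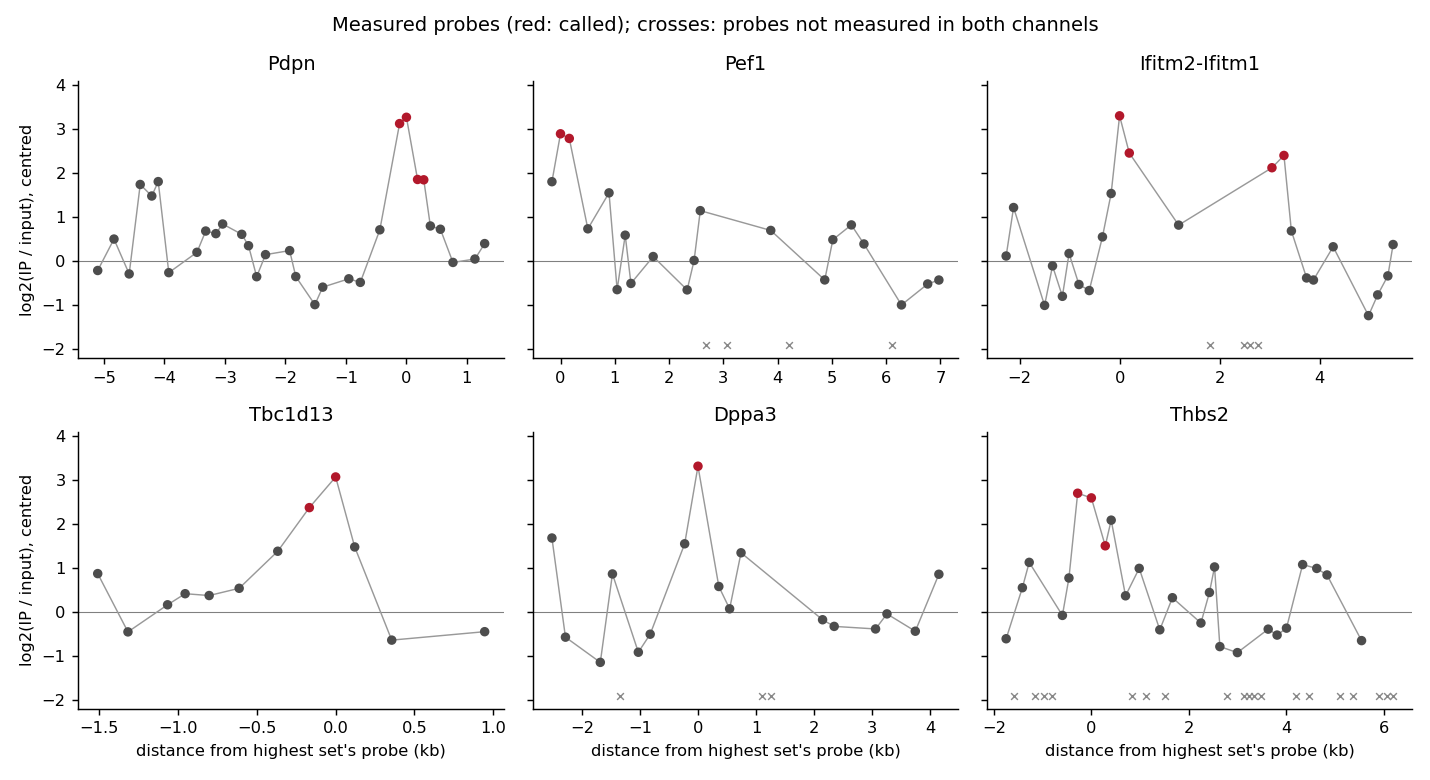
Centred log2 ratio of every measured probe (points, red where called; y axis) against the distance from the probe at the centre of the highest set (x axis, kb) for 6 regions; grey crosses mark probes not measured in both channels and have no value. The called probes stand in 1 or 2 narrow groups in each region, which the calling rule favours, with Pdpn reaching 3.28 and Dppa3 3.31.

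Among the other members called under all 4 settings were transporters, matrix proteins and transcription factors. Of the 34, 18 had a single RefSeq promoter, and in 8 of these it was CpG-rich by the limits above, against 30.3% of matched members. The 8 included Pef1, Tbc1d13, Slc5a6, Dhrs8 and Sfrs11. Thbs2, an extracellular matrix thrombospondin, had called probes at 2.70, 2.59 and 1.5, which lay 1011, 730 and 444 bp after its start. Slc19a3, a thiamine transporter, had 1.99 and 2.47 within 140 bp of its start, and Slc5a6, a transporter of biotin and pantothenate, had 3.00, 1.87 and 2.10 in its highest set. Dennd2c, a DENN-domain protein, had 2.32 and 2.87 at 313 and 106 bp before its start. Dhrs8, now Hsd17b11, a lipid droplet dehydrogenase, had 1.85 and 2.44 at 250 and 392 bp before its start. Foxp2, a forkhead transcription factor, had 2.45, 3.41 and 1.31 at input signals of 85.1, 238 and 332, all under the array median. With bright input its highest set lay at other probes, with a mean of 1.55. Nkx1-2, a homeobox gene annotated with a neighbouring gene, had 2.38 and 2.75. Trp53, the p53 tumour suppressor, had 1 called probe at 2.75, which lay 1682 bp after its start. Spic, an Ets factor of red pulp macrophages, had 2.10 and 2.91 but −0.19 in the next probe.

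In some of the 34 the call came from a probe between 2 high neighbours. Fcer1a, the α chain of the IgE receptor of mast cells, was called at a probe of 0.09 that stood between 2.57 and 2.69. P2rx3, an ATP-gated channel of sensory neurons, was called at −0.01 between 1.99 and 2.76. Sfrs11, a splicing factor now named Srsf11, had 5 called probes, of which 1 had a value of 0.18. In all, 6 of the 65 called probes of the 34 had a value under 1 of their own. Hence a call marks a set and not each probe in it.

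The member mmu-mir-218-1 was the only one of 77 members with a microRNA name that was called with bright input, and 5 of the 77 were called with measured spots. Of all members, 2.21% and 5.91% were called under these settings. Its highest set had log2 ratios of 0.82 and 3.39 in its own probes and 1.49 in a neighbouring probe outside the member. Its 3 called probes had 2.68, 2.27 and 3.39, and the first 2 of these lay outside that set. The probe at 3.39 shared an unbroken run of 40 bases with the RefSeq hairpin of miR-218-1. The member was not called when neighbours had to be next to each other on the array, and 8 of its 26 probes were measured. The mature miRNA is shown because the probe reaches into it by 16 bases, with the seed, bases 2 to 8, in capitals.
miR-218-5p: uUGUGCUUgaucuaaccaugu

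The highest sets of all came mainly from regions with few measured probes. The 12 members with the highest set means, from 3.10 to 2.53, were Ceacam11, Pdpn, AW551984-Olfr148, Cyp2b9, Ankrd5, Styk1, Cga, Ugt2b35, Retnlb, Txndc10, Hbb-y and Tas2r113. Ceacam11, a placental member of the carcinoembryonic antigen family, had 2 probes at 3.71 and 2.48 in its set and 10 of 30 probes measured. Cyp2b9, a liver cytochrome P450, had 1.05, 4.47 and 2.72, where the last rested on signals of 343 over 63.3, and 8 of 22 probes were measured. Hbb-y, the embryonic β-like globin, had 2.09 and 2.98 with input signals of 73.5 and 57.3, at which only a high ratio could count as measured. Tas2r113, a bitter taste receptor, had 2.63, 2.03 and 2.94 and 5 of 21 probes measured. Retnlb, a goblet cell protein of the resistin family, had 4.07 at an input signal of 87.6 and 1.08 beside it. Styk1, a kinase-like protein, had 2 near-equal values of 2.59 and 2.64 at input signals of 412 and 249.

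**Figure D4:**
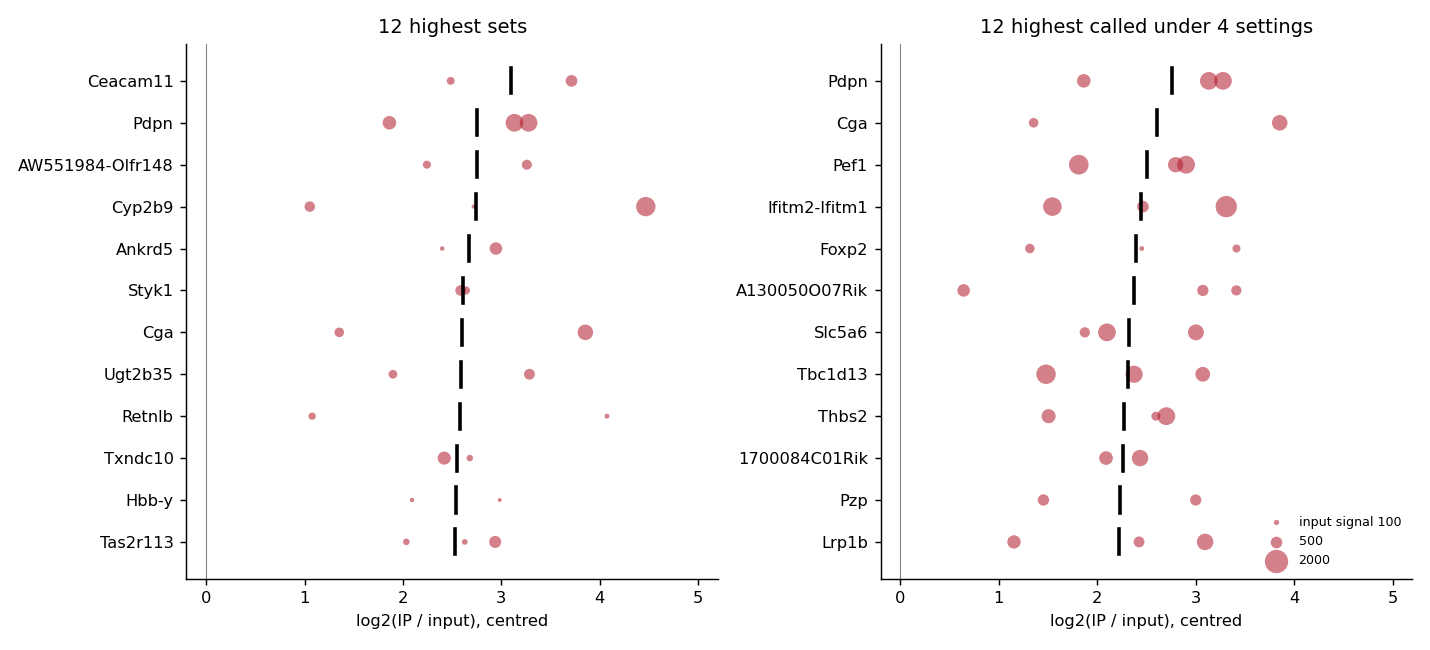
Centred log2 ratio (x axis) of each probe in the highest set of 12 members by set mean (left) and of the 12 highest among those called under 4 settings (right); points are probes with an area that grows with the input signal up to 2000, and black bars are set means. Sets on the left run from 2.53 to 3.10 and include small points, such as the 2 probes of Hbb-y with input signals of 73.5 and 57.3.

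None of the 12 apart from Pdpn and Cga was called with bright input. In AW551984-Olfr148, Cyp2b9 and Hbb-y, for example, no set remained under that setting, so no call was possible. Cga, the common α subunit of pituitary and placental glycoprotein hormones, had 3.85 at 1 probe, 1560 bp before its start and with an input signal of 890, and 1.35 at the neighbouring probe. In Ankrd5 (now Ankef1) and Retnlb the highest set mean with bright input was −0.56 and −0.43, at other probes than those of the highest set with measured spots. Ugt2b35, Styk1, Cga, Pdpn and Tas2r113 were called also when neighbours had to be next to each other, and the other 7 were not. AW551984-Olfr148, whose name joins a second gene of the olfactory receptor family, had 4 measured probes of 33, and Txndc10 (now Tmx3), a thioredoxin-domain protein of the endoplasmic reticulum, had 5 of 32.

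Of 13 stem cell genes among the members, 3 were called with measured spots, 6 with the G+C trend subtracted, 4 with bright input and 2 with all spots. Of all members, 5.91%, 14.8%, 2.21% and 13% were called under these settings. Their median highest set mean was 1.12, against 0.70 over all members with a set. The list holds genes with expression in embryonic stem cells and was written with earlier results of these data known. More of its probes were measured (63.1%) than of all member probes (45.2%), and the part of this in the counts was not tested.

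Dppa3 encodes a maternal factor that protects the maternal genome of the zygote from demethylation. Its set had log2 ratios of 1.55, 3.31 and 0.58, and its 17 measured probes had a median of −0.04. Dppa5, an RNA-binding protein of stem cells, had 2.18, 2.23 and 1.20 in its set. Its 17 measured probes had a median of −0.28, but probes of this name ran from chr9:78376345 to chr9:78452212. That median therefore does not describe 1 promoter alone. Dppa5 was called with measured spots, with the G+C trend subtracted and with bright input, but not with all spots. Fbxo15, an F-box protein used as a reporter of the stem cell state, had 2.36 and 1.56 and was likewise not called with all spots. The pair Tdgf1-Lrrc2, of which Tdgf1 is the Nodal co-receptor Cripto, had 1.38, 1.98 and 1.23 and was called with bright input and with the G+C trend subtracted. The median over measured probes was 0.48 in Fbxo15 and 0.73 in Tdgf1-Lrrc2. Each set was chosen as the highest of its region, so a place above the region's median was given in advance.

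The other stem cell genes were not called with measured spots. Zfp42, the zinc finger protein Rex1, had 0.74, 1.78 and 1.07, and Spp1, osteopontin, had 1.64, 0.34 and 3.03, and both were called with the G+C trend subtracted. The highest set mean was 1.05 in Nr5a2, an orphan nuclear receptor that can maintain Oct4, 0.88 in Dppa4, 0.79 in Nr6a1-Olfml2a, named for the germ cell nuclear factor, and 0.74 in Aire-Dnmt3l, named for a cofactor of DNA methylation. It was 0.50 in 2410146L05Rik (now Ooep), an oocyte protein, and 0.05 in Pecam1, an adhesion molecule. Dppa1 had 2 measured probes of 12, both below 0, and no set.

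Of 5 Wnt pathway genes among the members, 0 were called under any of the 4 settings. With measured spots 5.91% of all members were called, so a list of 5 cannot be told from the rest by this count. Dkk4, a secreted Wnt inhibitor, had a highest set mean of 0.67 with 20 of 26 probes measured, and Dkkl1-Tead2 had 0.65 with 11 of 12. Most probes of both were measured.

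Genes of differentiated tissues made up most of the other lists. Liver plasma proteins had 1 called member of 23, Apoh (apolipoprotein H), with a set mean of 2.01 (SD 0.10 over 2 probes), which was also called with bright input. Cytochrome P450 genes had 2 of 35, Cyp2b9 and Cyp2e1. Digestive and gut proteins had 3 of 23, with the pancreatic protein Reg2 at 2.52 from 4 measured probes of 20. Milk proteins and the prolactin family had 2 of 29, the caseins Csnd and Csnk, and only 21.5% of the probes in this list were measured. For these lists the share called lay between 4.35 and 13%, with small numbers throughout, against 5.91% of all members.

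Among immune and barrier genes the share called ran from 0% in defensins to 19.2% in serpins, against 5.91% of all members. Blood cell surface proteins had 7 called members of 103, including Clec4a3, a lectin receptor of myeloid cells, at 2.12. Cytokines and chemokines had 6 of 57, with Il17a and Ifna1 both at 2.07, and 0 of the 57 were called with bright input. Skin barrier proteins had 4 of 43, serpins 5 of 26 with Serpini2 at 2.47 and Serpinb11 at 2.27, and defensins 0 of 29. With the G+C trend subtracted, 9 serpins and 17 blood cell surface proteins were called, where 14.8% of all members were.

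The remaining lists were small, and their counts stand against 5.91% of all members called with measured spots and 13% with all spots. Taste, trace amine and itch receptors had 2 called of 53 with measured spots and 25 with all spots, while 26.7% of their probes were measured. Testis and epididymis genes had 2 of 43, oocyte and early embryo genes 2 of 22 (Dppa3 and Nalp4b), lens and retina genes 1 of 16 (Rp1h), peptide hormones 1 of 13 (Cga), placental genes 1 of 11 (Ceacam11), globins 1 of 3 (Hbb-y) and striated muscle genes 0 of 11. The highest set means of lists without a call were 1.89 for Defb37, a β-defensin, and 1.28 for Tnnt3, a fast muscle troponin.

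At the low end stood 2 placental prolactin relatives on chromosome 13. Prlpo, now Prl7c1, had 12 measured probes that all lay below 0, from −1.43 to −0.97 with a median of −1.26. Its input was bright, with signals from 590 to 1357. Plfr, now Prl7d1, had a median of −1.01 over 9 measured probes, of which 8 were below 0. Rpl19, a ribosomal protein gene, had a median of −0.94 over 8 probes and 1 probe at 1.97 whose input signal was 94.8. These were the 3 lowest medians among members with at least 8 measured probes. The list of milk proteins and the prolactin family as a whole was not low. Its median of gene medians was 0.62, against −0.026 over all members, with 21.5% of its probes measured.

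Calls in the members did not gather at the transcription start. For 1565 members and 6805 other genes a probe matched a RefSeq promoter exactly and gave the distance of all probes of that gene. In 3215 of 3228 genes with a second matching probe, the distances agreed within 2 bp. In the 500 bp after the start, 0.703% of 2275 measured member probes were called (95% Wilson interval 0.433 to 1.14%). Between 1000 and 1500 bp after the start it was 1.54% (1.00 to 2.37%), and between 5000 and 4500 bp before it 1.43% (0.778 to 2.61%). In the other genes 6.14% (5.78 to 6.52%) were called in the 500 bp after the start, 2.83% in the 500 bp before it and 0.382% between 5000 and 4500 bp before it. Intervals cover counting error only, and neighbouring probes share sets.

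The start was also where base composition differed most. In the 500 bp after the start the mean G+C of probes was 41.9% in members and 54.6% in other genes, and in the bin from 1500 to 1000 bp before it, 38.4% and 41.0%. With the G+C trend subtracted, 2.33% of member probes and 1.35% of the other genes' probes were called in the 500 bp after the start. Over the bins from 5500 bp before to 2500 bp after the start, member shares then lay between 1.64 and 3.71% and those of other genes between 0.881 and 1.92%. The highest bin of the other genes was then no longer the one after the start.

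**Figure D5:**
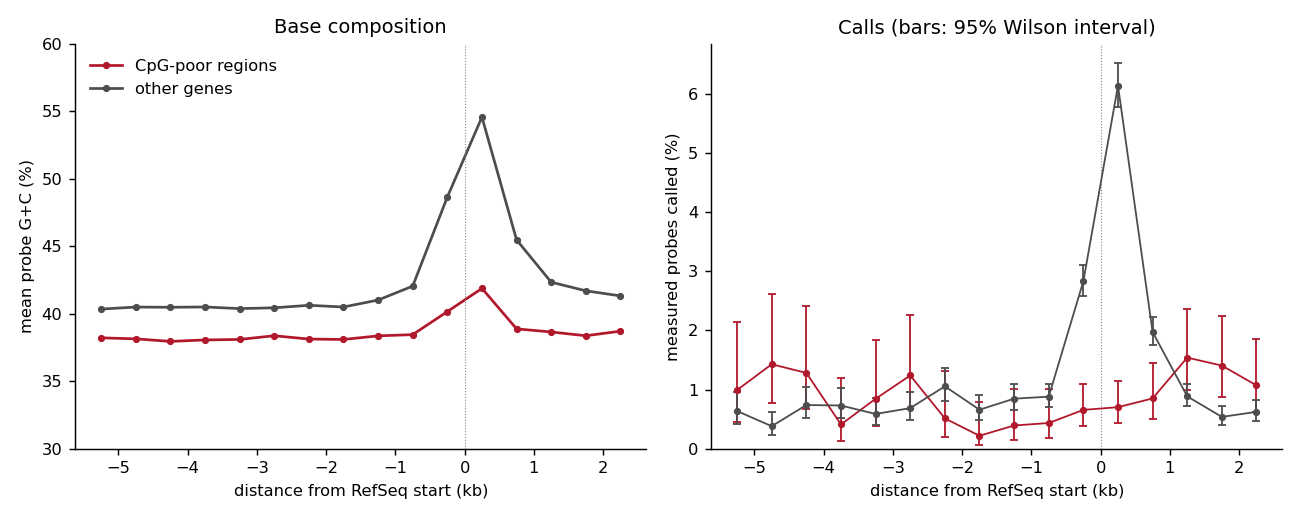
Mean probe G+C (left, percent) and share of measured probes called (right, percent, with 95% Wilson intervals) in bins of 500 bp by distance from the RefSeq start (x axis, kb) for 1565 CpG-poor regions (red) and 6805 other genes (grey). The other genes peak at 6.14% just after the start, while the regions stay between 0.22 and 1.54%.

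The share called differed with the RefSeq promoter class, as a description without a test. Of the 1625 matched members below either limit for a CpG-rich promoter, 6.95% were called with measured spots and 17.3% with the G+C trend subtracted, and of the 708 above both limits, 4.38% and 10.6%. With bright input the shares were 2.15% and 1.84%. Other genes with a CpG-poor RefSeq promoter, the class most like the members, were called in 10.5%, 13.6% and 8.55% of cases.

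Motifs in called and uncalled member probes were searched on both strands, and few called probes held any of them. CTTTGTT stood in 12 of 292 called probes (4.11%, 95% Wilson interval 2.37 to 7.04%) and in 1.67% of 37362 uncalled measured probes. CTTTGAA stood in 6 called probes (2.05%, 0.945 to 4.41%) against 1.59%, and CTTTGAT in 4 (1.37%, 0.534 to 3.47%) against 1.04%. The octamer ATGCAAAT stood in 3 (1.03%, 0.350 to 2.98%) against 0.361%. TAGTTTC, which is CTTTGAT read backwards, was a comparison and stood in 1 called probe (0.342%, 0.0605 to 1.91%) against 0.902%. The uncalled share lay below the interval for CTTTGTT and within it for the others. Motif intervals, here and for the other settings, cover counting error only. Neighbouring probes share sets and several motifs and settings were compared, so such a place is a description and no test. The median G+C was 37.3% in called and 41.7% in uncalled measured member probes. The shares were not matched for G+C, and the part of this in them was not tested. In the other genes' measured probes under 50% G+C, CTTTGTT stood in 2.84% of called and 1.72% of uncalled ones. CTTTGAA stood there in 2.71% and 1.59%, and TAGTTTC in 0.645% and 0.862%.

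With bright input, CTTTGAA stood in 5 of 105 called member probes (4.76%, 2.05 to 10.7%) against 1.35%, and CTTTGTT in 5 (4.76%) against 1.56%. With the G+C trend subtracted, CTTTGTT stood in 2.29% of 830 called probes (1.47 to 3.55%), an interval that holds the uncalled 1.68%. Under that setting CTTTGAA stood in 2.53% (1.66 to 3.84%), and the uncalled 1.57% lay below the interval. With all spots CTTTGTT stood in 2.36% against 1.93%. Of the 65 called probes in the 34 members called under all settings, 7 held at least 1 of the Tcf/Lef or Sox-type strings. The share of uncalled probes with any of these strings was not counted, so this count cannot be read as high or low. RefSeq promoters of 300 bases held CTTTGAT in 3.73%, CTTTGAA in 5.14%, CTTTGTT in 5.85% and ATGCAAAT in 1.74% of 32851 promoters. A match is a string of letters and not a shown binding site.

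The values just inside and just outside the limits of the rule were close. Genes whose highest probe lay between 50 and 55% G+C (1861 members) had a median highest set mean of 0.72, and 4.62% were called. Genes whose highest probe lay between 55 and 60% (2339, outside) had 0.75 and 4.40%. Members with 10 to 12 probes were called in 1.83% of 328, and genes with 7 to 9 probes, outside, in 1.35% of 296.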

How the data were processed

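Labelled immunoprecipitate and input were read from the arrays with Agilent Feature Extraction 9.1.1.1, as the file headers state. Its intensity values, deposited per channel after background subtraction and dye normalization, hold surrogates for spots not above background, per the file headers. The authors' deposited log10 ratio was not used. Here, log2 of Cy5 over Cy3 was centred on each array's median of spots measured in both channels, without non-uniform spots (9 and 18). A probe was called at a set probability under 0.001, if it was itself under 0.001 beside one under 0.1, or if 2 probes of its set were under 0.005. The scale (0.71 and 0.68) came from values below the median. The highest set of a called region can centre on an uncalled probe, and a set can take in a neighbouring probe of another gene name.

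Named genes were the 12 highest called, the 6 highest with surrogate sets only, the 3 lowest medians among regions with at least 8 measured probes, 2 of each of 19 gene lists, all stem cell genes and, added after the values were seen, members called under 4 settings. Members and lists were chosen with earlier results of these data known. RefSeq (GRCm38.p6) held 2206 members under a current symbol, 820 under an older one and 214 as 2 genes, and 192 were unmatched. Alternatives changed the spots, trends, background correction, set rule, neighbour distance and the limits of the rule.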

Additional observations from a re-analysis of the deposited data

How the results depend on the processing

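The count of 203 called members became 447 with all spots, 507 with the G+C trend subtracted from measured spots, 515 with it subtracted from all spots, 867 with normexp and an offset of 50, and 421 with the intensity trend subtracted. It was 117 with a G+C limit of 50% and 306 with a limit of 60%, in 1571 and 5771 regions. Among settings chosen after seeing the data it was 76 with bright input and 133 with neighbours next to each other on the array. The causes were not tested, except that fewer or more regions enter when the limit moves. Other settings gave 140 to 241. With 1 array left out it lay between 48 and 155, since each array holds other genes. The median log2 ratio of member probes, −0.059, was 0.075 with all spots, 0.072 and 0.088 with the G+C trend subtracted from measured and all spots, −0.036 with normexp, 0.043 with the intensity trend subtracted, −0.12 with bright input, and −0.018 and −0.072 with limits of 50% and 60%. With 1 array left out it lay between −0.064 and −0.051. The surrogate share lay between 45.7% and 65.4%. Among named genes that were called, the highest set mean was negative with bright input in Ankrd5 (−0.56), Retnlb (−0.43), Sprrl1 (−0.21) and Tas2r137 (−0.63). With adjacent neighbours it was negative in Adam24 (−0.12) and Retnlb (−0.046). In Ankrd5, Retnlb and Adam24 these sets lay at other probes than the highest set with measured spots. The values there are thus no reversal of the same peak. No paired analysis was possible because both arrays belong to 1 group and share no probes.

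The number of arrays, 1 per region, and the dim immunoprecipitate signal limit what can be read: for 54.7% of member probes only a bound on the signal exists, and a region without a call is not shown to lack Tcf3.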
